A study of Homo sapiens with 16 samples.

Results

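The genes described here encode the nuclear-encoded subunits of the oxidative phosphorylation complexes. They were taken by symbol from a table of 11282 genes: protein-coding genes whose names begin with NDUFA, NDUFB, NDUFC, NDUFS, NDUFV (without the NDUFAF assembly factors), UQCR, COX4, COX5, COX6, COX7, COX8 or ATP5, together with SDHA, SDHB, SDHC and SDHD. The rule found 80 genes, 38 for complex I, 4 for complex II, 9 for complex III, 11 for complex IV and 18 for complex V, and it used no measured value. All 80 passed the filter on low values. The rule sorts by name only: NDUFA4 is counted under complex I although its protein is now known as a subunit of complex IV, ATP5IF1 is an inhibitor of the ATP synthase, and UQCRHL is a retrocopy of UQCRH whose reads may be shared with it.

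The libraries came from HCC70, a cell line of basal-like breast cancer, infected with lentiviral short hairpin RNAs (shRNAs) in the wells of microtiter plates. The hairpins were directed at 4 transcription factors (KLF5, RBPJ, NFIB, FOXA1) or at RFP, LACZ and LUC (red fluorescent protein, beta-galactosidase and luciferase), reporters that human cells lack. A further construct was labelled plko after the shRNA vector, and the labels do not say whether it carried a hairpin. Each of the 8 constructs had 2 libraries, 16 in all, and the 6 libraries of shRFP, shLACZ and shLUC served together as the hairpin controls, while plko was kept apart. No wild-type or uninfected HCC70 library was used here, and no time after infection is given. The labels give the paired libraries of a construct different shRNA identifiers, and nothing says that they were separate cultures, so every p-value measures the spread between these libraries. The study as a whole asked how such regulators shape the mixture of cell states in basal-like cancer cells.

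Oxidative phosphorylation takes electrons from NADH at complex I and from succinate at complex II, passes them through ubiquinone to complex III and through cytochrome c to complex IV, and uses the proton gradient so built to make ATP at complex V. Most subunits are encoded in the nucleus and imported, and a few core subunits are encoded in mitochondrial DNA, whose genes are not analysed here. The nuclear genes are known for being transcribed together, in part through NRF1, ETS factors such as GABPA, YY1 and SP factors that bind close to their start sites. KLF5 itself is a Krüppel-like zinc finger protein that binds GC-rich and CACCC elements.

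Promoter windows of the members were searched for the letters of these elements, and 66 of the 80 genes had a window in RefSeq (GRCh38.p14, 250 bases before to 50 after the start). Motifs were searched as exact letters on both strands, with overlaps between motifs allowed. Shares are given for the 66 windows, then for the windows of all protein-coding genes and of the 8927 tested genes with one. The NRF1 core GCATGCG was in 19.7% of the members' windows, against 5.14% and 6.56%. The YY1 core ATGGCGG was in 28.8%, against 7.63% and 11.3%, and the ETS core CCGGAAG in 30.3%, against 14.2% and 20.5%. The GC box GGGCGG was in 62.1%, which lies above the 58.5% of all windows and below the 70.7% of tested genes. The CACCC box was in 56.1%, against 62.9% and 62.5%, and the CCAAT box in 33.3%, against 36.4% and 37.2%. Among 12 matched genes that were lower with the KLF5 hairpins, 6 held the GC box and 8 the CACCC box, and of 4 that were higher, 4 held the GC box and 1 the CACCC box. These are matches of letters and not sites of binding.

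The 250 bases before the start are printed for the 5 genes with the smallest p on each side among those with 1 window in the table. NDUFS6 (chr5:1801157-1801406 on the plus strand) and ATP5PD (chr17:75046970-75047219 on the minus strand) were lower with the KLF5 hairpins, UQCRC1 (chr3:48609647-48609896 on the minus strand) and NDUFB7 (chr19:14572067-14572316 on the minus strand) were higher, and ATP5MC1 (chr17:48892537-48892786 on the plus strand) was lower in plko. Capitals mark the NRF1, ETS, YY1, GC box and CCAAT box letters on either strand, and each window is written 5′ to 3′ in the direction of its gene.
NDUFS6: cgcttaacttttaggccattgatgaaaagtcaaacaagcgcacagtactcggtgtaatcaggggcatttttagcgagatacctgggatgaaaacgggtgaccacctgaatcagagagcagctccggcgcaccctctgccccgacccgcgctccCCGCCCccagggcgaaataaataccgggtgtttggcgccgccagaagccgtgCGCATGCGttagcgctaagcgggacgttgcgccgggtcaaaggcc
ATP5PD: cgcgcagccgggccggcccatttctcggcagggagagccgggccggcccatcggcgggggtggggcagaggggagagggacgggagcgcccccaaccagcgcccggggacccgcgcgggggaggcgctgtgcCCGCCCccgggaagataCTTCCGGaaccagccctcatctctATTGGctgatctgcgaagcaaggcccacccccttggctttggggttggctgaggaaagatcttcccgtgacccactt
UQCRC1: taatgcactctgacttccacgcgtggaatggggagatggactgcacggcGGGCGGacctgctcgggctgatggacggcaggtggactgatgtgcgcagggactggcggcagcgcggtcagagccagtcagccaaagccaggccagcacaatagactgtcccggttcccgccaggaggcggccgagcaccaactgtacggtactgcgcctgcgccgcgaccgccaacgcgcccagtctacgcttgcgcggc
NDUFB7: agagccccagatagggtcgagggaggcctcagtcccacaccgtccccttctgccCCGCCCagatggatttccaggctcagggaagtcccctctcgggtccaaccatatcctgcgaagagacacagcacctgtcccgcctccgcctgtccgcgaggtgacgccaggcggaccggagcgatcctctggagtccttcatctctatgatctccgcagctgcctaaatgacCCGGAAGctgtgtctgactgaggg
ATP5MC1: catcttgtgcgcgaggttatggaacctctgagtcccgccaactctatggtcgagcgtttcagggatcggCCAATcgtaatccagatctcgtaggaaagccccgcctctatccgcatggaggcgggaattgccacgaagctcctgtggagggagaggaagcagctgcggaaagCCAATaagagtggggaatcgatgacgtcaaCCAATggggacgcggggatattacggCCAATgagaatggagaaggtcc
NDUFS6 holds an NRF1 core and a GC box. ATP5PD holds an ETS core, a GC box and a CCAAT box, UQCRC1 a GC box, and NDUFB7 an ETS core and a GC box. The ATP5MC1 window differs from the other 4 in holding 4 CCAAT boxes and none of the other letters searched.

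Depth ranged from 375713 reads (plko 1) to 3090666 reads (RBPJ 1), and the median number of reads per member ran from 50 to 535.5 in the same libraries, against 11 to 101 for the median gene. KLF5 stood at 63.4% and 37.8% of its control mean in its own libraries, RBPJ at 89.5% and 17.7%, NFIB at 71.1% and 12.6%, and FOXA1 at 24.4% and 58.6%. Of these only KLF5 passed the test (limma adjusted p = 0.00249), and in the library labelled RBPJ 1 the level of RBPJ (43.3) lay within the range of the controls (43.1 to 54.9). All 10 markers of basal breast epithelium were in the table, with a summed signal of 4924 to 5549 in the KLF5 libraries, 3569.7 to 5256 in plko and 5087 to 7679 in the hairpin controls. Among them KRT6A, a keratin of activated epithelium, had 105 and 73.5 in KLF5 and 64.0 and 276 in plko against 329 to 1103 in the controls (limma adjusted p = 0.00898 and 0.0506), and KRT6B had 139 and 375 in plko against 309 to 1039.7 (limma adjusted p = 0.0421), while the other markers of that list did not pass in either comparison or, for TP63, were too low to test. The 5 luminal markers in the table summed to 396 to 434 in KLF5, above the 199 to 361 of the controls, and to 322 to 401 in plko, and GATA3, a luminal transcription factor, was higher in KLF5 (limma adjusted p = 0.0134). Of the markers of other cell types, the endothelial list had only ENG and the leukocyte list only PTPRC and CD68, and the summed signal of COL1A1, COL1A2, DCN and PDGFRA was 35.5 to 43.2 in the KLF5 libraries, 11.0 to 19.8 in plko, 8.38 to 25.8 in the hairpin controls and 12.5 to 40.1 in the RBPJ, NFIB and FOXA1 libraries, with COL1A1 higher in KLF5 (limma adjusted p = 0.0291). The part of these markers in the results below was not tested.

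With KLF5 hairpins more of the oxidative phosphorylation genes were lower than higher, and the share higher was near that of all genes. Of the 80 genes, 16 were lower and 5 were higher than in the hairpin controls (limma on log2(normalized signal + 1), Benjamini-Hochberg adjusted p under 0.05 over all genes tested). Over all 10826 genes tested, 6.61% were called lower and 4.42% higher, 11% in all, so the share lower among the members (20%) was above the background and the share higher (6.25%) was near it. The members are more highly expressed and have shorter transcripts than most genes (median length 750 against 2597 bases). Among genes in the middle range of the members' level 11.4% were lower and 8.78% higher, and among genes in the middle range of their transcript length 12.6% were lower and 5.25% higher. At an unadjusted p under 0.05 there were 39 members, against 24.9% of all genes, and 55 members had a log2 fold change below 0, against 46.1%. The median log2 fold change was -0.20 for the members, 0.05 for all genes, -0.0005 for the genes of like level and -0.08 for the genes of like length. In bulk RNA of this kind, fewer cells of a type and less RNA per cell cannot be told apart.

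**Figure D1:**
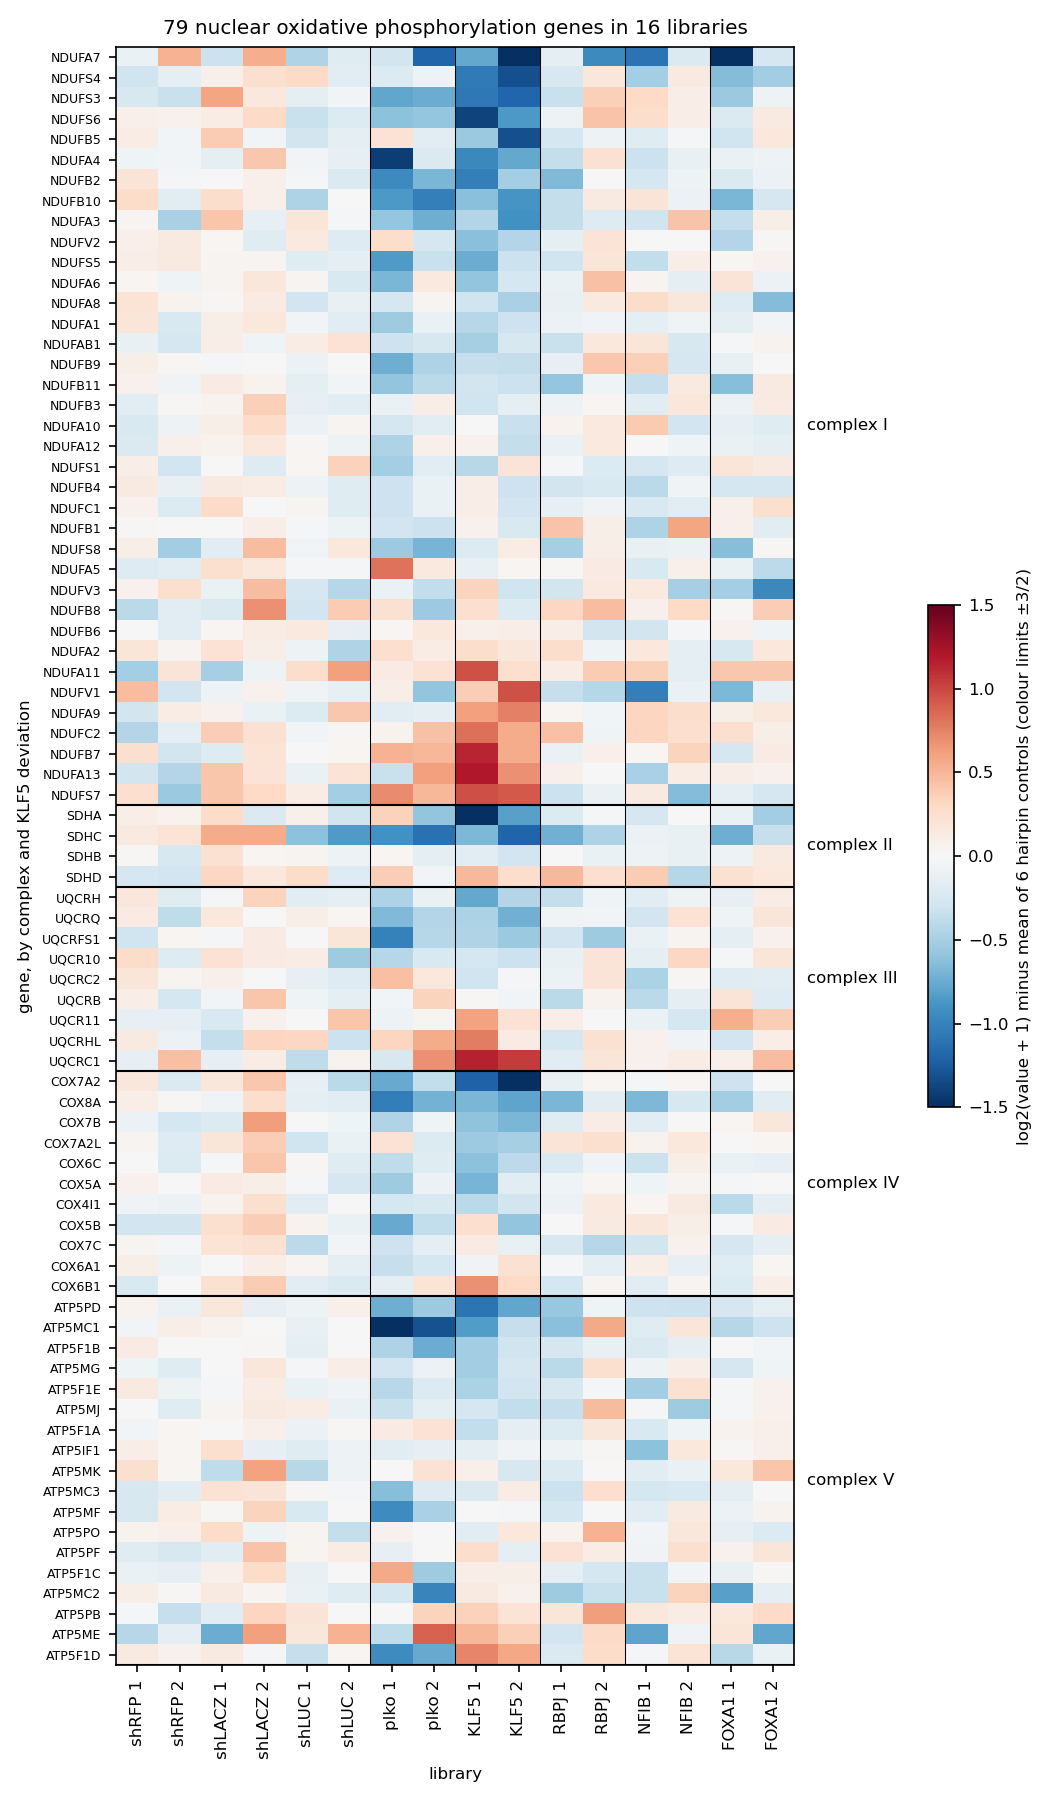
Deviation of 79 of the 80 genes (vertical axis, by complex and then by mean deviation in KLF5) from the mean of the 6 hairpin control libraries in each of 16 libraries (horizontal axis), in log2 units as colour, blue lower and red higher. The KLF5 columns hold strong blue and strong red within complex I, the plko columns are mostly blue, and the RBPJ, NFIB and FOXA1 columns are paler.

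Both KLF5 libraries showed the shift. The median deviation of the members from the control mean was -0.26 and -0.27 in KLF5 1 and KLF5 2, and -0.31 and -0.17 in plko 1 and plko 2. In the 6 control libraries, which helped to set the zero, it lay between -0.08 and 0.14, and in the other 6 libraries between -0.17 and 0.07. The SD of deviations across the members was 0.63 and 0.60 in KLF5, 0.46 and 0.43 in plko and 0.18 to 0.23 in the controls. Over all genes it was 0.69 and 0.70 in KLF5, 0.87 and 0.55 in plko and 0.365 to 0.485 in the controls, which helped to set the zero. RBPJ 2 (0.61), FOXA1 2 (0.59) and NFIB 1 (0.58) lay above plko 2 over all genes. RBPJ 1 (0.46), NFIB 2 (0.46) and FOXA1 1 (0.48) lay within the range of the controls. A spread wider than in the controls was thus not confined to the members or, over all genes, to KLF5 and plko. The members' reads made up 1.73% and 1.78% of all reads in KLF5, 1.67% and 1.89% in plko and 1.99% to 2.32% in the controls, so both KLF5 libraries and both plko libraries lay below every control library. RBPJ 1 (1.96%), NFIB 1 (1.93%) and FOXA1 1 (1.97%) also lay below every control, by less, while the second library of each had 2.14% to 2.16%. The signal of both KLF5 libraries lay below all 6 controls for 33 of the 80 members, against 13.4% of all genes, and above them for 7, against 14.3%.

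**Figure D2:**
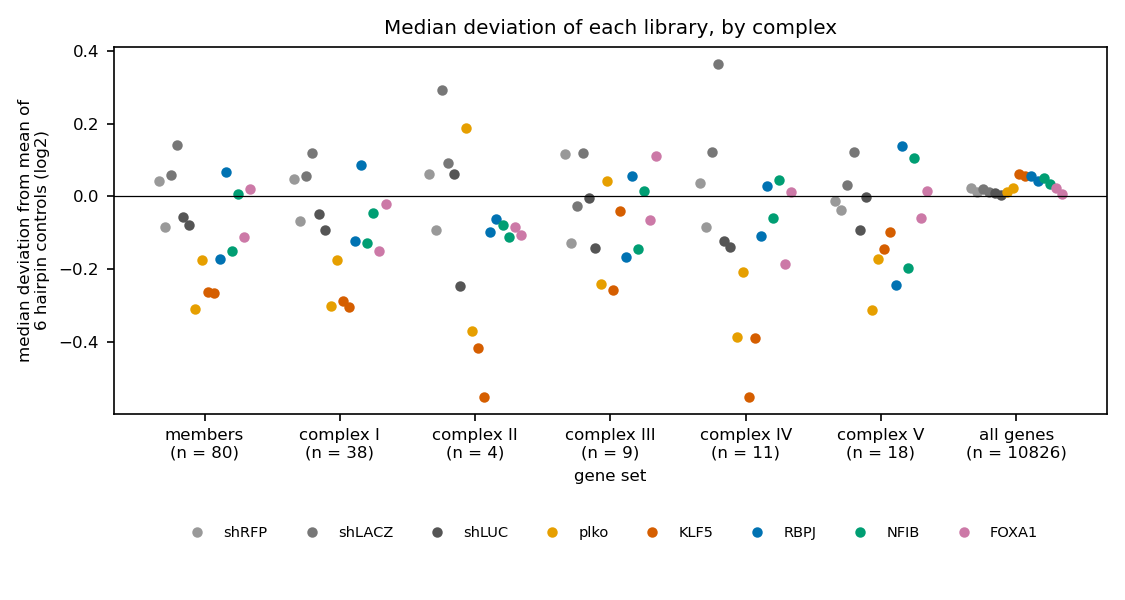
Median deviation from the mean of the 6 hairpin controls (vertical axis, log2) of all members, of each complex and of all genes tested (horizontal axis), one point per library. For all members the KLF5 points at -0.26 and -0.27 and the plko points at -0.31 and -0.17 lie below the control points, which span -0.08 to 0.14. The points of RBPJ 1 (-0.17), NFIB 1 (-0.15) and FOXA1 1 (-0.11) lie below them too. For all genes every point lies close to 0.

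Of the 38 genes counted under complex I, 8 were lower with KLF5 hairpins and 4 were higher, against 6.61% and 4.42% of all genes. NDUFS3, a core subunit of the arm that hands electrons to ubiquinone, had a normalized signal of 30.6 and 28.0 in the KLF5 libraries and 51.5 to 98.6 (median 61.3) in the controls, a log2 fold change of -1.13 ± 0.24 (SE, limma adjusted p = 0.00364). NDUFS6, an accessory subunit at the NADH-oxidising end, had 205 and 298 against 429 to 656 (median 567), a log2 fold change of -1.12 ± 0.20 (SE, limma adjusted p = 0.000518). NDUFS4, another accessory subunit there, is a low gene here, with 14.2 and 11.7 against 24.6 to 37.8 (median 30.0), a log2 fold change of -1.19 ± 0.26 (SE, limma adjusted p = 0.00425). For these 3 genes no KLF5 library overlapped the controls.

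In the membrane arm, which pumps protons, the accessory subunits NDUFB5, NDUFB2 and NDUFB10 were lower. NDUFB5 had 79.6 and 46.7 against 97.1 to 153 (median 114), so KLF5 2 was much lower than KLF5 1, a log2 fold change of -0.93 ± 0.22 (SE, limma adjusted p = 0.00624). NDUFB2 had 105 and 151 against 184 to 246 (median 213), a log2 fold change of -0.77 ± 0.20 (SE, limma adjusted p = 0.012), and NDUFB10 had 73.2 and 60.7 against 81.9 to 138 (median 117), a log2 fold change of -0.76 ± 0.22 (SE, limma adjusted p = 0.0253). Neither gene overlapped between the groups. NDUFA4 had 150.0 and 173 against 266 to 392 (median 284), a log2 fold change of -0.87 ± 0.23 (SE, limma adjusted p = 0.0166), with the high control value coming from shLACZ 2.

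The 4 genes that were higher are all subunits of complex I. NDUFA13, an accessory subunit also known as GRIM-19, had 219.7 and 153 in KLF5 against 69.5 to 127 (median 98.7) in the controls, a log2 fold change of 0.94 ± 0.25 (SE, limma adjusted p = 0.0162). NDUFB7, of the membrane arm, had 126 and 84.0 against 46.7 to 67.1 (median 57.3), a log2 fold change of 0.85 ± 0.21 (SE, limma adjusted p = 0.0111). NDUFC2, also of the membrane arm, had 244 and 202 against 100.3 to 177 (median 135), a log2 fold change of 0.70 ± 0.21 (SE, limma adjusted p = 0.031). NDUFS7, the core subunit that holds the last iron-sulfur cluster before ubiquinone, had 39.8 and 38.5 against 13.2 to 26.8 (median 22.6), a log2 fold change of 0.95 ± 0.30 (SE, limma adjusted p = 0.0457). In all 4 genes both KLF5 libraries lay above every control. NDUFA9, which sits close to NDUFS7, had 49.8 and 54.8 against 26.3 to 42.9 (median 31.9) and missed the threshold (adjusted p = 0.0533). Reads of NDUFA13 and NDUFC2 may be shared with readthrough or neighbouring genes (YJEFN3, NDUFC2-KCTD14) that overlap their exons on the same strand. NDUFS7 has antisense neighbours, and whether counting used strand is not stated. The limit holds for genes called lower too: NDUFB2 overlaps ADCK2 on the same strand, and SDHA has 6 named pseudogenes.

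In complex II, which also belongs to the citric acid cycle, SDHA and SDHC were lower and the other two did not pass. SDHA, the flavoprotein that oxidises succinate, had 51.9 and 100.3 against 144 to 214 (median 186), with KLF5 1 far below KLF5 2, a log2 fold change of -1.28 ± 0.24 (SE, limma adjusted p = 0.00114). SDHC, a membrane anchor, had 39.1 and 26.8 against 34.7 to 93.2 (median 71.4), a log2 fold change of -0.94 ± 0.31 (SE, limma adjusted p = 0.048), and here KLF5 1 lay within the control range. The iron-sulfur subunit SDHB had 188 and 172 against 177 to 245 (median 213) (log2 fold change -0.22, adjusted p = 0.446). The other anchor, SDHD, had 19.2 and 16.3 against 10.8 to 16.9 (median 13.3) (log2 fold change 0.38, adjusted p = 0.488).

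In complex III, UQCRC1 was higher and UQCRH and UQCRQ were lower. UQCRC1, one of the large core proteins that face the matrix, had 100.2 and 93.3 against 34.0 to 61.1 (median 43.5), which is 214% of the control mean, a log2 fold change of 1.10 ± 0.25 (SE, limma adjusted p = 0.00481). UQCRH, the hinge protein that helps cytochrome c1 to meet cytochrome c, had 421 and 529 against 636 to 910.2 (median 681), a log2 fold change of -0.61 ± 0.18 (SE, limma adjusted p = 0.0327). UQCRQ, a small subunit next to cytochrome b, had 563 and 474 against 599 to 869 (median 812), a log2 fold change of -0.59 ± 0.18 (SE, limma adjusted p = 0.0372). All 3 genes were without overlap between KLF5 and the controls.

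In complex IV, 3 of 11 genes were lower and none was higher, against 6.61% and 4.42% of all genes. Both KLF5 libraries lay below every control for 6 of the 11, against 13.4% of all genes. COX7A2, the subunit 7A form of most tissues, had 116 and 86.3 against 204 to 357 (median 276), or 36.8% of the control mean, a log2 fold change of -1.42 ± 0.20 (SE, limma adjusted p = 7.15e-05). Its relative COX7A2L, which helps complexes III and IV to join, had 128 and 133 against 153 to 242 (median 185) and did not pass (log2 fold change -0.52, adjusted p = 0.0745). COX8A had 405 and 375 against 578 to 781 (median 641), a log2 fold change of -0.74 ± 0.19 (SE, limma adjusted p = 0.0118), and COX7B had 93.8 and 88.7 against 119 to 221 (median 135), a log2 fold change of -0.64 ± 0.21 (SE, limma adjusted p = 0.0492). COX4I1, the common form of subunit 4, had 299 and 328 against 355 to 467 (median 389), below every control, but missed the threshold (log2 fold change -0.34, adjusted p = 0.196). COX6A1 (log2 fold change 0.09, adjusted p = 0.848) and COX6B1 (0.49, adjusted p = 0.109) did not pass either.

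In complex V, 1 of 18 genes was called, against 11% of all genes in either direction. ATP5PD, subunit d of the stalk that holds the catalytic head still, had 117 and 146 against 229 to 282 (median 249), a log2 fold change of -0.93 ± 0.18 (SE, limma adjusted p = 0.00101), with no overlap. ATP5F1B and ATP5F1A, subunits of the catalytic head, did not pass. ATP5F1B had 166 and 194 against 217 to 259 (median 238) (log2 fold change -0.41, adjusted p = 0.111) and ATP5F1A had 335 and 391 against 406 to 456 (median 433) (-0.25, adjusted p = 0.348), though both KLF5 libraries lay below every control for each. ATP5F1D, the delta subunit of the turning central stalk, had 72.5 and 65.3 against 34.0 to 47.9 (median 44.9), above every control, and missed the threshold (log2 fold change 0.65, adjusted p = 0.0601). The median log2 fold change was -0.58 for complex II, -0.43 for complex IV, -0.19 for complex I, -0.17 for complex III and -0.07 for complex V, and the differences between complexes were not tested.

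With each library left out in turn, calls were fewest without KLF5 1, over all genes as among the members. The count of 21 rested on both KLF5 libraries. It was 6 (all lower) without KLF5 1 and 8 (6 lower, 2 higher) without KLF5 2. The call of COX7A2 held when each of the 16 libraries was left out in turn (adjusted p 2.86e-05 to 0.0102). Without KLF5 1 the adjusted p rose to 0.0626 for NDUFS6, 0.0668 for ATP5PD, 0.136 for SDHA, 0.0914 for UQCRC1, 0.31 for NDUFB7 and 0.305 for NDUFA13. Without KLF5 2 it rose to 0.0643 for NDUFS3, 0.0863 for NDUFS4, 0.282 for NDUFB5 and 0.0512 for UQCRC1. COX8A, NDUFA4, NDUFB10, NDUFC2, UQCRH, UQCRQ, NDUFS7, SDHC and COX7B lost their calls without either KLF5 library, and NDUFB2 without KLF5 1. Over the 16 libraries left out in turn the adjusted p of NDUFB10 ran over 0.0117 to 0.26, with the call lost also without shRFP 1, that of NDUFC2 over 0.0179 to 0.315 (lost also without shRFP 1 and shRFP 2) and that of UQCRH over 0.021 to 0.37 (lost also without shRFP 1 and shLACZ 2). UQCRQ (0.0195 to 0.33) lost its call also without shRFP 1, shLACZ 1, shLUC 1 and shLUC 2. NDUFS7 (0.0336 to 0.253) lost it also without either shRFP, either shLUC or either FOXA1 library, COX7B (0.0395 to 0.269) without shRFP 1, shLACZ 2, either shLUC or either FOXA1 library, and SDHC (0.0121 to 0.417) without any single NFIB, shRFP, shLACZ or FOXA1 library. Where plko was pooled with the hairpin controls, 9 members were called (7 lower, 2 higher).

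**Figure D3:**
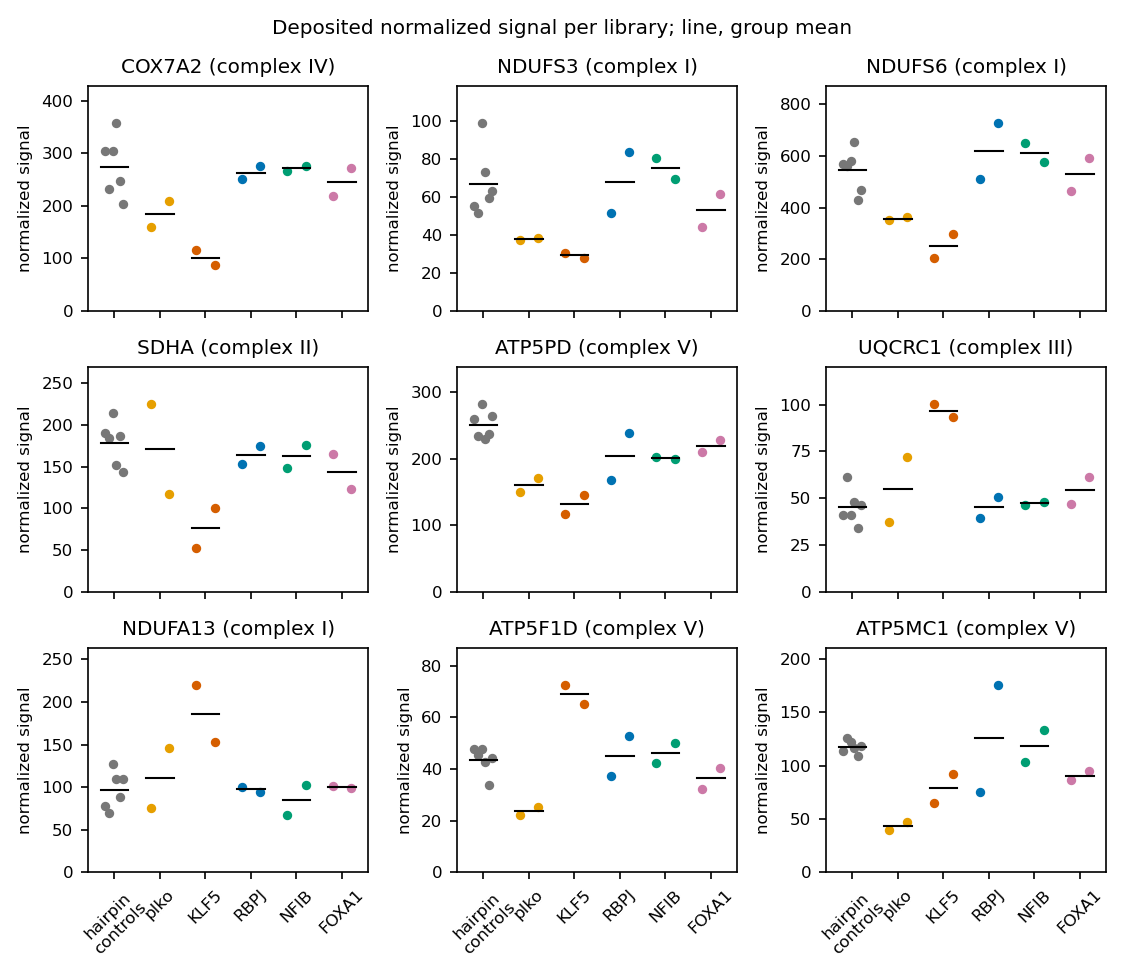
Normalized signal per library (vertical axes, linear and starting at 0) of 9 genes in the hairpin controls (6 libraries), plko, KLF5, RBPJ, NFIB and FOXA1 (2 libraries each), with the group mean as a line. COX7A2 runs from 204 to 357 in the controls and is at 116 and 86.3 in KLF5, while ATP5F1D is at 72.5 and 65.3 in KLF5 and at 22.1 and 25.4 in plko, on opposite sides of its controls.

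The plko libraries were lower than the hairpin controls for 13 of the 80 members and higher for none. Over all genes 5.63% were lower and 1.88% higher, 7.5% in all, and among genes of like level and of like length 8.46% and 9.89% were lower, so the members' share of 16.2% was above each of these. The 13 were 5 genes each of complexes I and V and 1 each of complexes II, III and IV. The median log2 fold change of the members was -0.24 against 0.01 for all genes, -0.004 for genes of like level and -0.17 for genes of like length. Both plko libraries lay below every control for 26 members, against 12.3% of all genes, and above for 3, against 9.94%. This comparison and that of KLF5 share the 6 control libraries, so the values are set side by side and no overlap is drawn from them.

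ATP5MC1, one of the genes for the ring subunit c, stood furthest from the controls in plko. It had 39.7 and 47.1 in plko against 109 to 126 (median 118) in the controls, or 36.9% of their mean, a log2 fold change of -1.42 ± 0.23 (SE, limma adjusted p = 0.000847), and 65.4 and 92.2 in KLF5 (log2 fold change -0.59, adjusted p = 0.11). ATP5MF, subunit f of the membrane part, had 404 and 556 in plko against 658 to 977 (median 783), a log2 fold change of -0.71 ± 0.18 (SE, limma adjusted p = 0.0218), while its KLF5 values of 771 and 767 lay inside the control range. ATP5F1D had 22.1 and 25.4, a log2 fold change of -0.85 ± 0.22 (SE, limma adjusted p = 0.0226), the opposite side of the controls from its values in KLF5. ATP5F1B had 172 and 141, a log2 fold change of -0.61 ± 0.16 (SE, limma adjusted p = 0.0248) and ATP5PD 150.0 and 171, a log2 fold change of -0.64 ± 0.18 (SE, limma adjusted p = 0.028). For these 5 genes of complex V no plko library overlapped the controls.

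COX8A had 315 and 398 in plko, against 405 and 375 in KLF5 and 578 to 781 (median 641) in the controls, a log2 fold change of -0.87 ± 0.19 (SE, limma adjusted p = 0.00656). In complex I, NDUFB10 had 61.8 and 55.1, a log2 fold change of -0.94 ± 0.22 (SE, limma adjusted p = 0.0102) and NDUFB2 110.3 and 133, a log2 fold change of -0.82 ± 0.20 (SE, limma adjusted p = 0.013), both close to their KLF5 values. NDUFA4 had 110.3 and 253, a log2 fold change of -0.81 ± 0.23 (SE, limma adjusted p = 0.0346), so plko 1 alone was far below. NDUFB9, of the membrane arm, had 185 and 223 against 289.9 to 328 (median 308), a log2 fold change of -0.60 ± 0.18 (SE, limma adjusted p = 0.0439). UQCRFS1, the Rieske iron-sulfur protein of complex III, had 28.7 and 43.4 against 47.6 to 66.7 (median 59.3), a log2 fold change of -0.72 ± 0.21 (SE, limma adjusted p = 0.0407), and SDHC had 33.1 and 28.5, a log2 fold change of -1.02 ± 0.31 (SE, limma adjusted p = 0.0432). The members nearest to being called higher were NDUFB7 (log2 fold change 0.51, adjusted p = 0.152), NDUFA5 (0.48, adjusted p = 0.187) and NDUFS7 (0.61, adjusted p = 0.236).

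With only 1 plko library left, the members' share called came nearer to that of all genes. The plko calls rested on plko 1, the shallowest library, and calls over all genes also fell without it. Without it 1 member was called, ATP5MC1 (adjusted p = 0.0343, range 2.78e-05 to 0.0343 over the 16 libraries left out in turn), and without plko 2 there were 10. Without plko 1 the adjusted p was 0.204 for COX8A, 0.0895 for NDUFB10, 0.262 for NDUFB2, 0.464 for ATP5MF and 0.283 for ATP5F1D. NDUFB10, ATP5F1B and SDHC lost their calls without plko 2 as well, where the adjusted p of NDUFB10 was 0.0572. Over the 16 refits the adjusted p was 0.0148 to 0.353 for ATP5PD (lost without plko 1 and shRFP 1), 0.000991 to 0.827 for NDUFA4 (lost without plko 1, shLACZ 2 and either shRFP library), 0.0186 to 0.62 for UQCRFS1, 0.0154 to 0.241 for SDHC and 0.0249 to 0.497 for NDUFB9, and the last 3 lost their calls without plko 1 and without most single control libraries. The edgeR quasi-likelihood test on the recovered reads called 7 members in place of 13, and DESeq2 called 10.

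The set of subunit c genes encodes the same mature protein with different import sequences, so the share of ATP5MC1 among them could be followed within each library. ATP5MC1 made up 5.57% of the reads of ATP5MC1, ATP5MC2 and ATP5MC3 in plko 1 (323 reads, exact 95% binomial interval 3.34% to 8.66%) and 8.59% in plko 2 (885 reads, 6.83% to 10.6%). It made up 6.87% in KLF5 1 (1340 reads, 5.57% to 8.35%) and 9.32% in KLF5 2 (848 reads, 7.45% to 11.5%). In the 6 control libraries it was 11.4% to 13.3%, above all 4 of these. The library RBPJ 2 stood apart on the other side at 18.8% (17.1% to 20.6%), and the remaining libraries lay between 10.7% and 13.6%. The intervals cover counting error only. ATP5MC2 had 545 and 327 in plko and 716 and 683 in KLF5 against 576 to 719 (median 666) (log2 fold change -0.63, adjusted p = 0.0686 and 0.10, adjusted p = 0.823), and ATP5MC3 did not pass either (-0.41, adjusted p = 0.203 and -0.05, adjusted p = 0.904). ATP5MC1 has 8 named pseudogenes, whose reads could be counted with it.

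**Figure D4:**
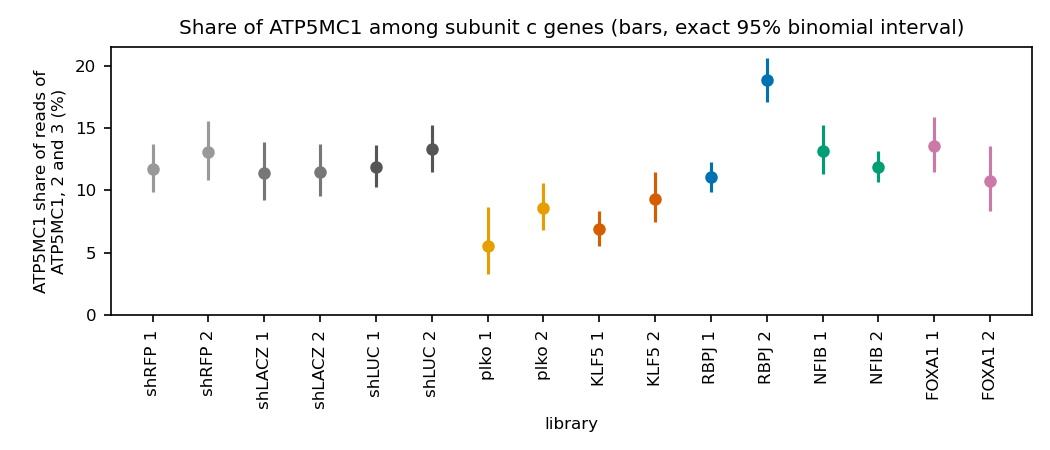
Share of ATP5MC1 among the reads of ATP5MC1, ATP5MC2 and ATP5MC3 (vertical axis, percent, starting at 0) in each of 16 libraries (horizontal axis), with exact 95% binomial intervals. The plko points at 5.57% and 8.59% and the KLF5 points at 6.87% and 9.32% lie below the 6 control points at 11.4% to 13.3%.

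Set directly against plko, KLF5 differed for 3 members, against 3.44% of all genes. ATP5F1D was higher in KLF5, with 72.5 and 65.3 against 22.1 and 25.4, a log2 fold change of 1.50 ± 0.27 (SE, limma adjusted p = 0.0062). SDHA was lower, with 51.9 and 100.3 against 225 and 117, a log2 fold change of -1.16 ± 0.30 (SE, limma adjusted p = 0.0345), although the plko libraries themselves were far apart. NDUFB5 was lower, with 79.6 and 46.7 against 137 and 104, a log2 fold change of -0.96 ± 0.27 (SE, limma adjusted p = 0.0472). COX7A2 (-0.86, adjusted p = 0.0571), NDUFA9 (0.83, adjusted p = 0.0964) and ATP5MF (0.70, adjusted p = 0.0879), given as log2 fold changes, did not pass. The median over the members was 0.05 and over all genes 0.03. With each library left out in turn, calls over all genes were fewest without plko 1 and most without plko 2. In neither of these refits was the members' share called above that of all genes. No member passed without plko 1 or without KLF5 1, where the adjusted p of ATP5F1D was 0.103 and 0.0591, and edgeR called 1 member. Without plko 2 there were 6 members called, and without either RBPJ library 5. Over the 16 refits the adjusted p ran over 0.00305 to 0.103 for ATP5F1D, 0.00406 to 0.525 for SDHA and 0.0294 to 0.448 for NDUFB5, which lost its call in 10 of them.

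**Figure D5:**
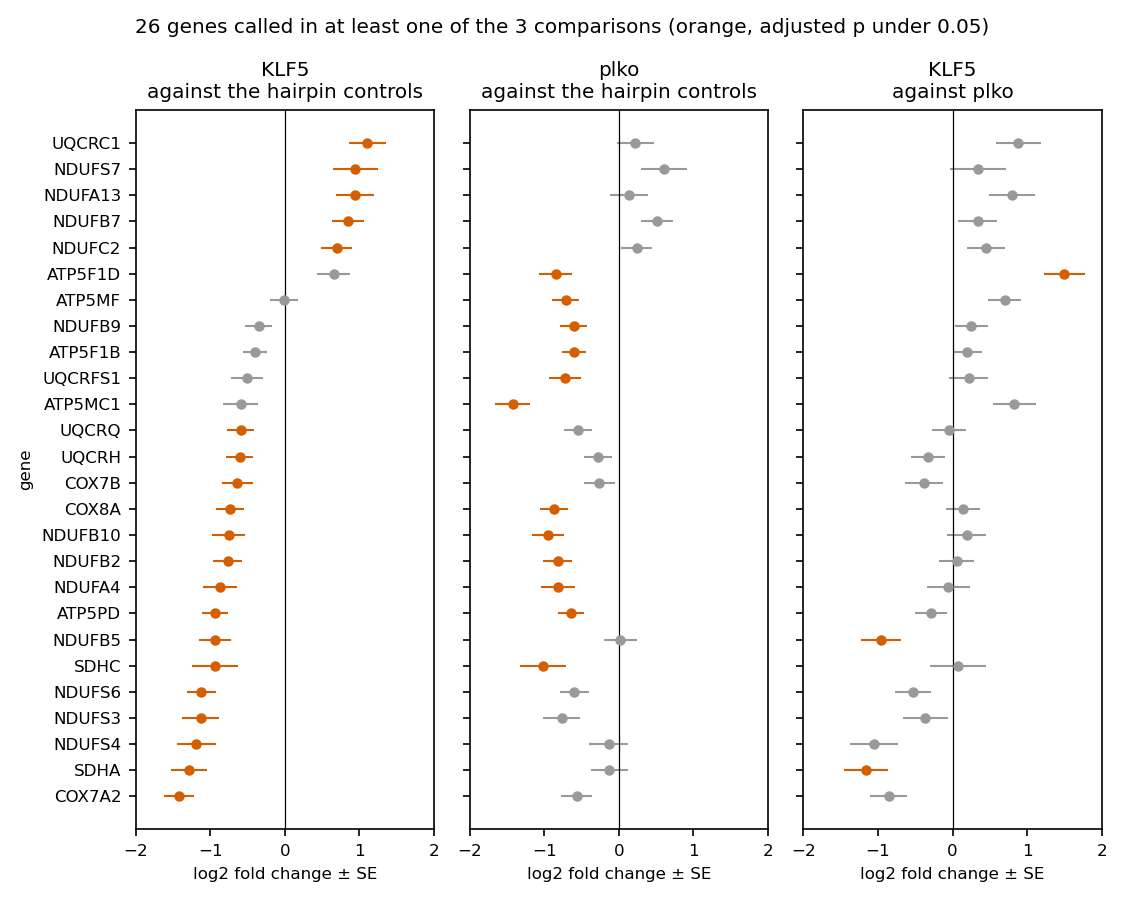
Log2 fold change with its SE (horizontal axes) of 26 genes called in at least 1 of 3 comparisons (vertical axis): KLF5 against the hairpin controls, plko against the hairpin controls and KLF5 against plko, called genes in orange. UQCRC1 (1.10) and COX7A2 (-1.42) mark the ends of the first panel, and ATP5F1D (0.65, -0.85 and 1.50) changes side between the first and second panels, where only the second value passed the test.

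A comparison whose fold changes use no hairpin control library was added after the data were seen, KLF5 against the mean of RBPJ, NFIB and FOXA1. The control libraries still entered its p-values, through the estimate of the spread that all groups share. This comparison called 17 members, 11 lower and 6 higher, against 6.49% and 4.4% of all genes. With each library left out in turn its calls were fewest without KLF5 1, over all genes as among the members. The lower genes included COX7A2 (-1.36, adjusted p = 0.000126), NDUFS6 (-1.23, adjusted p = 0.000247), SDHA (-1.10, adjusted p = 0.00457), NDUFS3 (-1.09, adjusted p = 0.00489) and COX7A2L (-0.64, adjusted p = 0.0289), each as a log2 fold change. The higher genes were NDUFS7 (1.17, adjusted p = 0.014), UQCRC1 (0.98, adjusted p = 0.0114), NDUFA13 (0.97, adjusted p = 0.0143), NDUFB7 (0.81, adjusted p = 0.0152), ATP5F1D (0.70, adjusted p = 0.0431) and NDUFV1 (1.11, adjusted p = 0.0317), the subunit that takes electrons from NADH. It called 4 members without KLF5 1 and 7 without KLF5 2, and COX7A2 and NDUFS6 held their calls with each of the 16 libraries left out (adjusted p 6.01e-05 to 0.015 and 4e-05 to 0.038). All 6 higher calls were lost without KLF5 1, and without KLF5 2 the only higher calls were NDUFA13 and NDUFB7. SDHA (adjusted p 0.00194 to 0.278) lost its call without KLF5 1, NDUFS3 (0.00131 to 0.0785) without either KLF5 library, and COX7A2L (0.0226 to 0.214) without either KLF5 library or FOXA1 2. NDUFV1 (0.0157 to 0.363) lost its call without either KLF5 library, RBPJ 2, NFIB 1 or FOXA1 1, and ATP5F1D (0.0297 to 0.294) without either KLF5 library, RBPJ 1, NFIB 1, either shRFP library, shLUC 2 or FOXA1 1. The same comparison of plko called 6 members lower, against 4.87% of all genes: ATP5MC1 (-1.29, adjusted p = 0.00244), ATP5F1D (-0.80, adjusted p = 0.0314), NDUFS6 (-0.70, adjusted p = 0.0323), NDUFB9 (-0.64, adjusted p = 0.0335), ATP5MF (-0.66, adjusted p = 0.0337) and NDUFB10 (-0.77, adjusted p = 0.0345). Without plko 1 it called none, without RBPJ 2 or FOXA1 2 it called ATP5MC1 alone, without RBPJ 1 it called 13 and without plko 2 it called 8 (6 lower, 2 higher).

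Hairpins against RBPJ, NFIB and FOXA1 gave no call among the 80 genes by limma, edgeR or DESeq2. At an unadjusted p under 0.05 there were 2, 1 and 5 members, against 6.01%, 6.53% and 6.96% of all genes. Both RBPJ libraries lay below every control for 5 members (4.03% of all genes) and above for none (4.19%), both NFIB libraries below for 3 (4.47%) and above for none (4.97%), and both FOXA1 libraries below for 7 (5.83%) and above for none (4.58%). Over all genes limma called 3 (0.0277%), 1 and 1 (0.00924% each). The median log2 fold change of the members stood at -0.03 with RBPJ hairpins and at -0.06 with those against NFIB and FOXA1. For genes of like length it was -0.02, -0.01 and -0.12 with RBPJ, NFIB and FOXA1 hairpins, and for all genes 0.03, 0.04 and -0.0007. For genes of like level the median was -0.02, -0.02 and 0.001 in the same order. With FOXA1 hairpins the members thus lay above genes of like length and below those of like level, and neither gap was tested. The lowest p among the members belonged to COX8A for RBPJ (403 and 578, log2 fold change -0.43, adjusted p = 0.784) and for NFIB (407 and 549.7, -0.46, adjusted p = 0.71), and to NDUFV3, a small subunit of the NADH-oxidising end, for FOXA1 (23.0 and 16.5 against 24.5 to 46.0 (median 32.9), -0.74, adjusted p = 0.599). On the higher side it belonged to ATP5PB for RBPJ (0.41, adjusted p = 0.827), NDUFC2 for NFIB (0.29, adjusted p = 0.826) and UQCR11 for FOXA1 (0.45, adjusted p = 0.697). RBPJ 1 is an RBPJ library by its label alone, since its RBPJ lay in the range of the controls.

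Among the 3 hairpin control constructs themselves, 1 member differed, against 0.111% of all genes. SDHC had 69.7 and 73.1 with shRFP, 92.9 and 93.2 with shLACZ, and 41.0 and 34.7 with shLUC (limma F test, adjusted p = 0.0387). The pairs did not overlap, and the shLUC values were as low as those of KLF5 and RBPJ, which are 39.1 and 26.8 and 37.8 and 45.5. The difference was not called when any 1 of the 6 libraries was left out.

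Other genes of the pathway were counted from lists. Against the hairpin controls, 6.61% of all genes were lower in KLF5 and 5.63% in plko, as given above, so counts of 1 or 2 in lists of 10 to 24 genes are near the background. With KLF5 hairpins 2 of 24 complex IV assembly factors were lower and none was higher. COX14, an early factor of COX1 assembly, had 15.6 and 16.3 in KLF5 against 50.3 to 63.4 in the controls (log2 fold change -1.75 ± 0.22 SE, adjusted p = 1.61e-05), and was also lower than in plko (39.7 and 41.5, log2 fold change -1.29 ± 0.27 SE, adjusted p = 0.0125). COA3, its partner, had 25.6 and 26.8 against 43.6 to 69.6 (log2 fold change -1.10 ± 0.27 SE, adjusted p = 0.0101). Of 16 complex I assembly factors COA1 and ACAD9 were lower, of 10 for complexes II and III SDHAF1, and of 4 for complex V none. Among 7 carriers of nucleotides and phosphate SLC25A6, an adenine nucleotide translocator, had 43.4 and 31.5 against 67.1 to 107 (log2 fold change -1.27 ± 0.23 SE, adjusted p = 0.000692), and VDAC1, the outer membrane channel, had 707 and 762 against 418 to 522 (log2 fold change 0.62 ± 0.17 SE, adjusted p = 0.0155).

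Of 16 genes of the citric acid cycle and pyruvate dehydrogenase MDH2 and PDHA1 were lower with KLF5 hairpins, of 5 electron carriers outside the rule none was called, and of 10 transcriptional regulators of respiratory genes none was called, all against the hairpin controls. Against RBPJ, NFIB and FOXA1, 1 gene of each of the last 2 lists was higher: CYC1, the cytochrome c1 of complex III (log2 fold change 0.57 ± 0.18 SE, adjusted p = 0.0486), and NRF1 (log2 fold change 1.47 ± 0.39 SE, adjusted p = 0.0165), which had 20.6 and 21.0 in KLF5 and 7.04 to 14.4 in the hairpin controls. Mitochondrial ribosomal proteins, which make the subunits encoded in mitochondrial DNA, were lower for 18 and higher for 2 of 74 (median log2 fold change -0.26), and cytosolic ribosomal proteins were lower for 31 and higher for none of 82 (median -0.50). In plko the same lists gave 10 lower of 74 and 16 lower of 82, with none higher, and ETFB, NDUFAF8 and SDHAF1 were lower. The part of transcript length in these counts was not tested beyond the shares given for genes of like length.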

How the data were processed

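RNA of 16 HCC70 libraries was read by 3′ cDNA barcoding, in vitro transcription and sequencing, per the labels' protocols, which mention a second run of some samples without naming them. The authors deposited 1 table of normalized signal (gene counts divided by 1 size factor per library, DESeq2-normalized per the file's name) for 11282 genes on genome build GRCh37 per the submitters' processing notes. Nothing names the aligner, the counter, the annotation, the strand setting or molecular identifiers. Per library, 100% of the deposited signal values were whole multiples of 1 read (tolerance 0.05 of a read), which gave the reads and depths. A further 2 columns matched no described sample and were not used.

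Symbols and gene types came from the GENCODE and RefSeq tables by Ensembl identifier. The filter asked for a signal of 5 or more in 2 or more libraries, with 10826 genes tested and 456 removed, with log2(signal + 1) fitted by limma 3.58.1 (R 4.3.3) with a mean-variance trend over 6 groups and 10 residual degrees of freedom. The tests were 2-sided with Benjamini-Hochberg adjustment over all genes tested, a call is an adjusted p under 0.05, and fold changes on this scale understate those of low genes. There were 6 planned comparisons, an F test among the control constructs and 2 comparisons added after the data were seen. Alternatives were pseudocounts of 0.5 and 5, no filter or a minimum of 20, TMM scaling, edgeR 4.0.16 and DESeq2 1.42.0 on the recovered reads, plko pooled with the controls, the replicate number as a block and each library left out, and the test was tried on simulated data. The members and all lists were chosen with earlier results of these data known. The genes named are those called in any comparison, the 3 of smallest p on each side, the isoform families, the SDH subunits and the targeted genes. Same-numbered libraries of different groups deviated together in 3 of 28 pairs of groups (r over 0.1, range -0.19 to 0.22). This gave little sign of pairing over all genes and does not exclude it. The members' share of reads was lower in library 1 than in library 2 of every construct but shRFP, by least for shLUC (2.0558% and 2.0565%), which was not tested. Replicate pairs differed beyond sampling noise in every group. The 250-base windows were read from the RefSeq promoter table (GRCh38.p14). Exon overlaps came from GENCODE, where 20 members overlap another gene on the same strand and 25 on the opposite strand, and 50 have a named pseudogene. The values of 1 member are not reported here, though it stays in the fits and counts, and the plots by gene leave it out.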

Additional observations from a re-analysis of the deposited data

Results flagged for a closer look

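In 4 of 39 named genes 1 of the 6 hairpin control libraries lay apart from the other 5 by more than Dixon's critical value for 6 samples, and chance gives about 1 in 20. COX7B read 220.59 in shLACZ 2 against 118.58 to 142.43 in the other controls. NDUFA4 read 391.93 in the same library against 266.1 to 287.47. UQCRQ read 598.9 in shRFP 2 against 774.21 to 868.71, and ATP5F1D read 34.032 in shLUC 1 against 42.833 to 47.871. The COX7B call in KLF5 was lost without shLACZ 2, and the UQCRQ and NDUFA4 calls in KLF5 were kept without the library that lay apart.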

How the results depend on the processing

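No result reversed under any alternative. The count of members called in KLF5 against the hairpin controls was 21, was 19 to 23 under the other pseudocounts, filters, scaling and tools, and moved to 9 with plko pooled with the controls (581 of all genes in place of 1194). In plko against the hairpin controls it moved from 13 to 7 with edgeR and to 3 without RBPJ 1 and plko 1 (all genes 812, 382 and 221, and 496 with DESeq2). In KLF5 against plko it moved from 3 to 1 and to 0 under the same settings (all genes 372, 146 and 23). In plko against RBPJ, NFIB and FOXA1 it moved from 6 to 1 under both (all genes 760, 366 and 296). The cause was not tested, except that leaving out libraries leaves fewer of them.

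With each library left out in turn the members called ranged from 6 to 23 in KLF5, from 1 to 16 in plko, from 0 to 6 in KLF5 against plko, from 4 to 21 in KLF5 against RBPJ, NFIB and FOXA1 and from 0 to 13 in plko against those. They were 0 to 0 in RBPJ, NFIB, FOXA1 and among the control constructs. Over all genes RBPJ gave 3 calls, and 9 with a pseudocount of 5, 1 with edgeR, 29 with DESeq2, 6 without plko and 235 without RBPJ 1 and plko 1. NFIB gave 1, and 2 with TMM, 0 with edgeR, 4 with DESeq2 and 7 without those 2 libraries. FOXA1 gave 1, 2 (pseudocount 5, DESeq2, no plko) and 4. With a replicate block the counts were 20 in KLF5, 15 in plko, 3 in KLF5 against plko and 0 in the others against the controls. Calls over all genes were also fewest without KLF5 1 or without plko 1 in the KLF5 and plko comparisons. The members' ranges with each library left out are thus not particular to them. Depth limits plko 1, where the median member had 50 reads.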
